A study of Mus musculus with 29 samples.

Results

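Mgp, Srpx2, Mxra8, Dpysl3 and Hdac11 are 5 of the 51912 gene IDs in a table of RSEM read counts from mouse ovary. They were chosen by their measured levels, which were lower in ovaries without p27 at embryonic day 18.5 (E18.5) and at postnatal day 8 (PND8). p27, the product of Cdkn1b, is an inhibitor of cyclin-dependent kinases that holds cells out of the division cycle. RNA was sequenced from papain-dissociated ovaries of wild-type (Cdkn1b +/+) and p27null (Cdkn1b -/-) mice at E13.5, E18.5, PND8 and 12 weeks (12wk), giving 29 libraries. Each wild-type group held 4 libraries. The p27null groups held 4 libraries at E18.5 and 3 at the other ages. The series title names pregranulosa cells, but the labels give the material as ovary and name no sort. Each library is therefore read as bulk RNA of mixed cell types. Which cells came through dissociation is not given and can differ between libraries. The labels do not give the strain, how the deletion was made or which part of Cdkn1b it removes, nor do they say that replicates came from separate animals. p-values therefore measure the spread between these libraries, which may be technical in part.

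The 5 genes act in different places. Mgp encodes matrix Gla protein, a small secreted protein whose glutamates are carboxylated with the help of vitamin K and which restrains calcification and bone morphogenetic protein signalling. Srpx2 encodes a secreted sushi-repeat protein that binds the urokinase receptor. Mxra8 encodes a transmembrane protein with immunoglobulin-type domains that also serves as an entry receptor for arthritogenic alphaviruses. Dpysl3 encodes CRMP4, a cytoplasmic protein that binds actin and microtubules and belongs to the family that carries semaphorin signals in growing axons. Hdac11 encodes the only class IV histone deacetylase, which also removes fatty acyl groups from lysine. In the ovary, stroma is the tissue between follicles: fibroblast-like cells that make collagens and proteoglycans, with vessels, smooth muscle and theca cells. Mgp, Mxra8 and Srpx2 are often found in fibroblasts and other mesenchymal cells, whereas Dpysl3 and Hdac11 are also well known from neurons. In bulk RNA, fewer cells of a type and less RNA per cell cannot be told apart.

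Positions are on the GRCm38 build, in GENCODE M21 annotation. Mgp (ENSMUSG00000030218) spans chr6:136872435-136875823 on the minus strand, 1.95 Mb from Cdkn1b. Hdac11 (ENSMUSG00000034245) spans chr6:91156665-91174692 on the plus strand, 43.8 Mb from Cdkn1b. Mxra8 (ENSMUSG00000029070) lies at chr4:155839680-155844088 and Srpx2 (ENSMUSG00000031253) at chrX:133908426-133932446, both on the plus strand. The labels do not say whether the deletion carries flanking sequence of another strain, and for Mgp a flanking allele and the loss of p27 cannot be told apart. Of the genes within 5 Mb of Cdkn1b, with Cdkn1b itself left out and Mgp counted, 4 of 43 were called at E18.5 (9.3%, all lower) and 1 of 45 at PND8 (2.22%). Over all genes 4.99% and 0.349% were called, and the 1 gene at PND8 is Mgp itself. Called means an adjusted p under 0.05 in edgeR's quasi-likelihood test with Benjamini-Hochberg adjustment over all genes tested.

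Of the 5 genes, 3 had an entry in the RefSeq promoter table (GRCm38.p6): Mxra8, Srpx2 and Hdac11. The sequence before the annotated start of these 3 genes is shown for a reader who may want to compare what precedes them. Their lower levels at E18.5 and PND8 are how they were chosen. Capitals mark matches to a fixed set of short motifs: the TATA box (TATAAA), the CCAAT box (CCAAT), the GC box (GGGCGG), the AP-1 site (TGANTCA), E-boxes of 2 kinds (CAGCTG or CACGTG), a forkhead site (GTAAACA), E2F sites of 2 kinds (TTTCCCGC or TTTGGCGC) and the CHR element (TTTGAA). Each was searched on both strands, and no motif contains another. The Mxra8 window is chr4:155839430-155839679, the Srpx2 window is chrX:133908175-133908424, both of 250 bases on the plus strand. For Hdac11 only the first 100 bases are shown, chr6:91156565-91156664 on the plus strand, because GENCODE starts the gene there.
Mxra8: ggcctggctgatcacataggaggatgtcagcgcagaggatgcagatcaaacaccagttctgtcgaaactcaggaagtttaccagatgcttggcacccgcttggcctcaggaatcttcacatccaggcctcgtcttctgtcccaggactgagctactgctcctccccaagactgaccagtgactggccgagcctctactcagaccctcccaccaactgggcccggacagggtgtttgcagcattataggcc
Srpx2: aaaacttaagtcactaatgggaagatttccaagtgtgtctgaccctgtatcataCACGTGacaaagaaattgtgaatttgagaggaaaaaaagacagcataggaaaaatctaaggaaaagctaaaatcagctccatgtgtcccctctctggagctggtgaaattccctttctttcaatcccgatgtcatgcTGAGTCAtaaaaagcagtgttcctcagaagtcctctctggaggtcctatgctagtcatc
Hdac11: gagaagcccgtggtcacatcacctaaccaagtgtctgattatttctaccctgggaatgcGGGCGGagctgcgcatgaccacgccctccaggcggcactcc
The windows differed in composition: 56.8% G and C before Mxra8, 41.2% before Srpx2 and 65.2% over the whole 250 bases before the RefSeq start of Hdac11. The window of Srpx2 held CACGTG, an E-box, at -196 to -191 from the RefSeq start and TGANTCA, an AP-1 type site, at -59 to -53. These letters occurred in 6.02% and 6.75% of 32851 promoter windows of the same length. The window of Hdac11 held GGGCGG, a GC box that occurred in 32.7% of windows, and, past the printed stretch, CCAAT (33.8% of windows) and CAGCTG (13%). None of the 10 motifs was found before Mxra8, so no motif of the set was shared by the 3 windows. A match is a description of letters, not evidence of binding.

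Library totals ranged from 14.1 M to 48.2 M counts, and the lowest count of any of the 5 genes in a library was 32, for Srpx2. Levels are given in CPM, counts divided by library size, after TMM scaling over all 29 libraries, and log2 fold changes come from a fit of the libraries of each comparison alone. Cdkn1b, which checks the labels, ran from 4.303 to 4.706 CPM in p27null against 19.17 to 26.21 CPM in wild-type libraries at E13.5, from 9.554 to 15.69 against 95.07 to 123.4 CPM at E18.5, and from 41.39 to 56.87 against 125.6 to 259.9 CPM at 12wk. The gap was narrowest at PND8, at 64.28 to 80.66 against 130.6 to 174.1 CPM, a log2 fold change of -1.06. Its genotypes did not overlap at any age. Replicate 3 of wild type at E13.5 stood apart, with 18.97% of its counts from haemoglobin genes. That library also had the lowest Mgp, Srpx2 and Mxra8 of its group.

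Mgp was low at E13.5, rose with age, and was lower in p27null ovaries at E18.5 and PND8 but not in adults. At E13.5 the wild-type libraries had 10.62, 12.36, 6.661 and 19.53 CPM of Mgp and the p27null libraries 12.11, 16.08 and 13.5 CPM. At E18.5 wild type stood at 78.19, 92.32, 74.61 and 97.84 CPM and p27null at 55.54, 72.94, 48.81 and 58.61 CPM. By PND8 the gap was wider, with 138.1, 142.1, 106.1 and 162.1 CPM in wild type and 60.84, 53.98 and 62.85 CPM in p27null. The genotypes did not overlap at E18.5 or PND8, though at E18.5 the highest p27null library (72.94 CPM) was just under the lowest wild-type one (74.61 CPM). The p27null mean of Mgp was 68.8% of the wild-type mean at E18.5 and 43.2% at PND8. In adults the libraries overlapped widely, at 113.3, 74.19, 146.9 and 159.7 CPM in wild type and 117.2, 124.6 and 179.5 CPM in p27null. Mgp in p27null ovaries thus stood at 58.98 ± 10.2 CPM (SD, n = 4) at E18.5 and 59.22 ± 4.65 CPM (SD, n = 3) at PND8, and at 140.5 ± 34.1 CPM (SD, n = 3) in adults. In wild type the order was 85.74 ± 11.1 (SD, n = 4), 137.1 ± 23.2 (SD, n = 4) and 123.5 ± 38.2 CPM (SD, n = 4). The step between E18.5 and PND8 in wild type was 1.6-fold with no overlap, but the libraries of these ages overlapped under RLE size factors.

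Srpx2, the other secreted protein, peaked at PND8 in both genotypes. Wild-type libraries at PND8 had 101.7, 108.4, 83.25 and 93.39 CPM of Srpx2 and p27null libraries 62.31, 53.56 and 51.45 CPM, or 57.7% of the wild-type mean. At E18.5 the levels were 32.27, 25.23, 26.62 and 30.41 CPM in wild type and 22.1, 20.15, 17.79 and 22.16 CPM in p27null, or 71.8%. Neither age had an overlap between genotypes. Outside these ages the Srpx2 values interleaved. At E13.5 wild type had 5.627, 4.271, 2.422 and 7.159 CPM and p27null 2.766, 4.667 and 5.368 CPM. In adults wild type had 20.89, 11.62, 25.62 and 29.53 CPM and p27null 19.35, 19.02 and 23.41 CPM. Between PND8 and 12wk the ratio of mean levels was 0.227 in wild type and 0.369 in p27null, and every adult library lay below every PND8 library of its genotype.

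Mxra8, the membrane protein, had its highest level before birth. At E18.5 the wild-type libraries stood at 187.9, 142, 199.8 and 209.1 CPM and the p27null libraries at 136.1, 137.6, 107.9 and 129.4 CPM, so the lowest wild-type library was only just above the highest p27null one. At PND8 the values were 93.96, 97.34, 72.81 and 89.46 CPM against 59.26, 47.12 and 48.56 CPM. The p27null mean was 69.2% of wild type at E18.5 and 58.4% at PND8. At E13.5 wild type had 86.63, 89.42, 42.92 and 98.77 CPM of Mxra8 and p27null 85.32, 71.35 and 78.28 CPM, an overlap that spans the whole p27null group. Adult values were 112, 73.88, 118.2 and 147.1 CPM in wild type and 64.15, 80.56 and 82.06 CPM in p27null, where only replicate 2 of wild type fell among the p27null libraries. The adult p27null mean of Mxra8 was 67% of the wild-type mean.

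Dpysl3 (ENSMUSG00000024501, chr18:43320984-43438286, minus strand), the cytoskeletal protein, was lower on average in p27null ovaries at each age, with the groups overlapping at E13.5 and 12wk. The E13.5 levels were 131.5, 49.29, 81.3 and 80.65 CPM in wild type and 59.5, 29.35 and 36.3 CPM in p27null. At E18.5 they were 122.5, 132.9, 126.6 and 168.7 CPM against 82.3, 102, 90.55 and 99.26 CPM. At PND8 Dpysl3 reached its highest levels, 455, 409.5, 419.7 and 394.5 CPM in wild type against 307.9, 288.5 and 263 CPM in p27null. The genotypes were apart at E18.5 and PND8, where the p27null mean was 67.9% and 68.3% of wild type. Adult libraries overlapped, at 310.8, 366.3, 323.6 and 256.3 CPM in wild type and 259.8, 327.7 and 258.1 CPM in p27null.

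Hdac11, the deacetylase, varied least with age. It had 28.54, 26.68, 39.78 and 37.57 CPM in wild type and 23.32, 20.83, 21.74 and 20.63 CPM in p27null at E18.5. At PND8 the values were 35.19, 39.27, 34.28 and 36.22 CPM against 25.46, 27.42 and 24.82 CPM. Both ages were without overlap, and the p27null mean was 65.3% and 71.5% of the wild-type mean. At E13.5 the libraries mixed, with 17.61, 18.6, 23.54 and 14.89 CPM in wild type and 19.06, 18.86 and 14.4 CPM in p27null. In adults wild type had 20.83, 14.11, 28.63 and 23.8 CPM of Hdac11 and p27null 18.63, 19.48 and 14.95 CPM. Reads of Hdac11 could include those of an overlapping gene on the opposite strand, Gm44002, which itself reached at most 112 counts in a library, and strandedness is not given in the sources used here. Mxra8 overlaps the antisense gene Mxra8os, which had at most 3 counts.

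**Figure D1:**
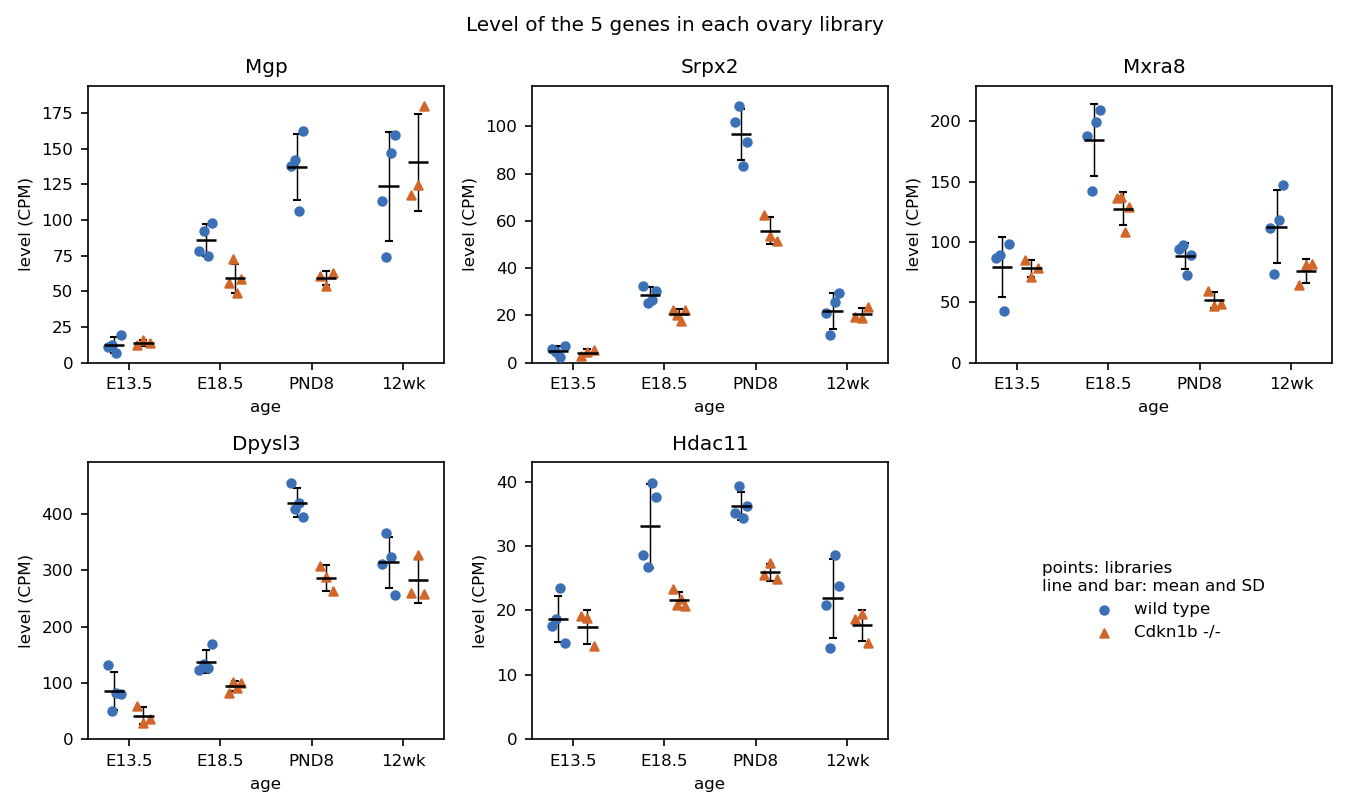
Level of the 5 genes in CPM (y axis, linear, from 0) at each age (x axis) in every library. Circles are wild type and triangles Cdkn1b -/-, and the horizontal line and bar give the group mean and SD; the genotypes are apart for all 5 genes at E18.5 and PND8, the ages used to choose them, and overlap for all 5 at E13.5 and 12wk.

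The E18.5 and PND8 differences of the 5 genes chose them and are described without a test. At E18.5 the log2 fold change was -0.57 for Mgp, -0.51 for Srpx2, -0.56 for Mxra8, -0.59 for Dpysl3 and -0.64 for Hdac11, within a narrow band. At PND8 the values spread out, from -1.22 for Mgp through -0.81 for Srpx2, -0.79 for Mxra8 and -0.57 for Dpysl3 to -0.50 for Hdac11. All 5 were lower without overlap at both ages. Among all genes, 5.04% of 16322 at E18.5 and 6.13% of 17785 at PND8 were lower without overlap, and 1.67% and 0.304% were called lower.

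E13.5 and 12wk did not enter the choice, so the genes could be tested there. At E13.5 none of the 5 was called, against 0.00606% of 16508 genes (1 gene, Cdkn1b), and with 576 at an unadjusted p under 0.05. All 5 had overlapping groups, where 2.02% of genes were lower without overlap. For Dpysl3 the log2 fold change was -1.07 ± 0.359 (SE), with an unadjusted p of 0.0162 and an adjusted p of 0.988 in edgeR's quasi-likelihood test. It was the only one of the 5 under an unadjusted 0.05, and DESeq2 called none. With all 8 groups in a single fit the Dpysl3 value was -1.05 and its adjusted p 0.0467, which passes the threshold. Replicate 1 of wild type, the highest for Dpysl3, also had the highest summed level of 6 nerve and Schwann cell markers, 271.8 CPM, against 15.17 to 71.53 CPM in the other wild-type and 8.1 to 17.33 CPM in the p27null libraries. In that library Tubb3, neuronal tubulin, stood at 109.7 CPM, against at most 27.7 CPM in the other E13.5 libraries. Without that library the Dpysl3 value was -0.80, and without p27null replicate 1 it was -1.44, the ends of the range with 1 library left out. The log2 fold changes of the other genes at E13.5 were 0.15 ± 0.313 (SE) for Mgp, -0.22 ± 0.396 for Srpx2, -0.05 ± 0.239 for Mxra8 and -0.14 ± 0.223 for Hdac11, each smaller than its standard error. Leaving out 1 library moved Mgp between -0.01 and 0.46, Srpx2 between -0.41 and 0.02, Mxra8 between -0.21 and 0.08 and Hdac11 between -0.24 and 0.05.

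In adults none of the 5 genes was called either, against 0.0115% of 17396 genes (2 genes, both higher), with 1675 genes at an unadjusted p under 0.05. The groups again overlapped for all 5, where 3.99% of genes were lower without overlap. Mxra8 had a log2 fold change of -0.59 ± 0.225 (SE), with an unadjusted p of 0.0325 and an adjusted p of 0.482 in edgeR's quasi-likelihood test. It alone of the 5 was under an unadjusted 0.05, and DESeq2 called none of them. Without replicate 2 of wild type, the library with the lowest Mgp, Mxra8, Srpx2 and Hdac11 of its group, the Mxra8 value was -0.75, and it was -0.41 without wild-type replicate 4 and -0.48 without p27null replicate 1, the last 2 with an unadjusted p of 0.0703 and 0.106 in edgeR's quasi-likelihood test. The same library had the lowest summed level of the 26 stroma markers, 5006 CPM against 7497 to 8759 CPM in the other adult wild-type libraries. The adult values of the rest were 0.18 ± 0.284 (SE) for Mgp, -0.09 ± 0.3 for Srpx2, -0.17 ± 0.13 for Dpysl3 and -0.32 ± 0.227 for Hdac11. With 1 library left out Dpysl3 ranged from -0.25 (without p27null replicate 3) to -0.10 (without wild-type replicate 2) and Hdac11 from -0.49 (without wild-type replicate 2) to -0.17 (without wild-type replicate 3). The change in genotype difference between E13.5 and 12wk, tested as an interaction, was 0.91 for Dpysl3 (unadjusted p 0.0444, adjusted p 0.766 in edgeR's quasi-likelihood test), -0.55 for Mxra8, -0.18 for Hdac11, 0.12 for Srpx2 and 0.02 for Mgp. No gene of 18983 was called in that test (0%), with 1220 at an unadjusted p under 0.05 and 68 called by DESeq2. Whether the difference at E18.5 or PND8 was larger than at E13.5 or 12wk was not tested, since those ages chose the genes.

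**Figure D2:**
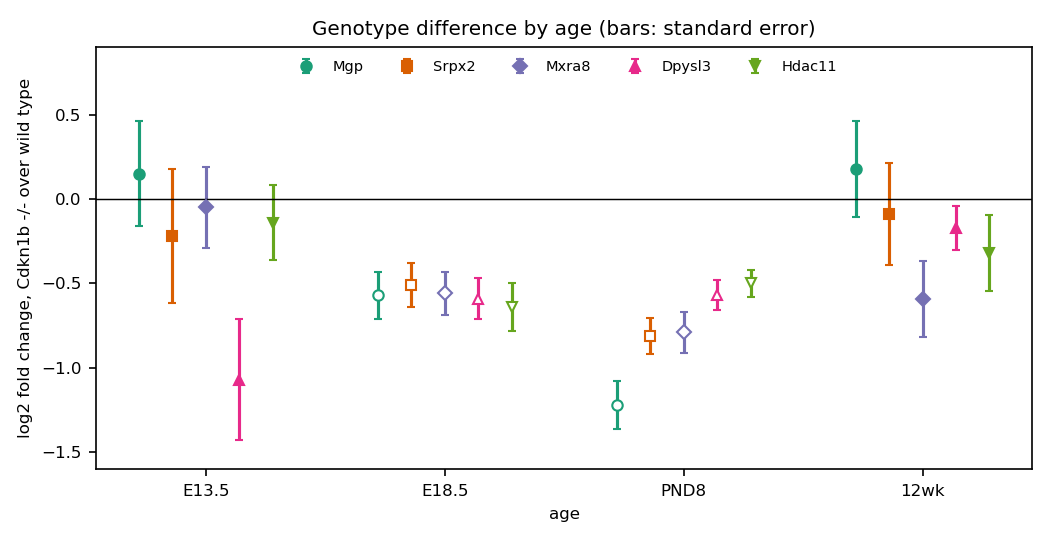
Log2 fold change of p27null over wild type (y axis) at each age (x axis), with bars of 1 standard error, for the 5 genes. Filled markers are ages that could be tested and open markers are the ages that chose the genes; Mgp reaches -1.22 at PND8 and 0.18 at 12wk.

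Over the life course from E13.5 to 12wk, 3 of the 5 genes rose in both genotypes and 2 were not called. In wild type Mgp rose by a log2 fold change of 3.30 (adjusted p 2.27e-05), Srpx2 by 2.13 (adjusted p 0.000564) and Dpysl3 by 1.83 (adjusted p 0.000254), all by edgeR's quasi-likelihood test. In p27null ovaries the same genes rose by 3.27 (adjusted p 6.65e-06), 2.20 (adjusted p 0.000234) and 2.69 (adjusted p 6.93e-05). Mxra8 changed by 0.48 in wild type (adjusted p 0.127) and -0.12 in p27null (adjusted p 0.49), and Hdac11 by 0.18 (adjusted p 0.528) and -0.04 (adjusted p 0.852). The ages differed in most genes: 37.1% of genes were called higher in wild type and 34.6% in p27null, of 73% and 68.9% called in all. The Mxra8 value in wild type passed the threshold with all groups in a single fit (0.51) and without replicate 2 of the adult group (0.66).

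The order of levels over the 8 groups differed from gene to gene. Mgp ran from the 2 overlapping E13.5 groups, through the E18.5 and PND8 p27null groups, to a chain of overlapping neighbours made of wild type at E18.5, 12wk and PND8 and p27null at 12wk. Mxra8 was lowest in p27null at PND8 and highest in wild type at E18.5, both apart from their neighbour. Srpx2 was highest in wild type and next highest in p27null at PND8, each apart from the group under it, while 4 groups, p27null and wild type at E18.5 and 12wk, formed a chain of overlapping neighbours between 20.55 and 28.63 CPM. For Dpysl3 the wild-type PND8 group stood apart at the top. For Hdac11 every neighbouring pair of groups overlapped. Divided by the merged exon length, wild-type PND8 levels were 116 CPM per kb for Mgp, 63.5 for Dpysl3, 33.1 for Srpx2, 30.3 for Mxra8 and 9.42 for Hdac11.

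Beside the 5 genes stands a list of 26 ovarian stroma genes: transcription factors, signals and receptors, collagens and small proteoglycans of fibroblast-like cells. At E18.5, 5 of the 25 stroma genes tested fell in p27null ovaries and none rose, against 1.67% of all genes called lower and 3.32% called higher. Among them were Tcf21 (log2 fold change -0.78) and Nr2f2 (-0.52), transcription factors of mesenchymal progenitors, and the collagen genes Col5a1 (-0.67) and Col6a3 (-0.66). At PND8, 1 of 26 fell, Pdgfra (-0.86), the receptor for platelet-derived growth factor that marks fibroblasts. Of all genes 0.304% were called lower at that age. The median of the list was -0.41 at E18.5 and -0.30 at PND8, against -0.04 and 0 for all genes tested, and 21 of 25 and 23 of 26 estimates were below 0, against 55.3% and 50.6% of all genes. Tcf21 at PND8 was -0.80 and Dcn, decorin, -0.67, but neither passed (adjusted p 0.17 and 0.158 in edgeR's quasi-likelihood test), and Col1a1 stood at -0.03. At E13.5 the list's median was -0.33 with no gene called, 5 genes lower at an unadjusted p under 0.05 and none called lower by DESeq2. In adults it was -0.04, again with none called, 2 genes higher at an unadjusted p under 0.05, and 1 higher and none lower by DESeq2. The summed level of the list overlapped between genotypes at every age, with 5427 to 8768 CPM in wild type and 4814 to 7107 CPM in p27null at E18.5. Col1a1 and Col3a1 led this sum, at 829.8 to 2024 and 1394 to 2364 CPM in wild type at E18.5. None of the 26 genes was at or under 3 counts in all libraries of a group.

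These calls were sensitive to single libraries. At E18.5 the number of stroma genes called lower was 0 without p27null replicate 3, 1 without p27null replicate 4, 2 without p27null replicate 2 or wild-type replicate 4, 3 without wild-type replicate 1 or 3, 4 without p27null replicate 1 and 8 without wild-type replicate 2. At PND8 it was 3 without wild-type replicate 3, 2 without p27null replicate 1 and 0 without any other single library.

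The 5 genes were also set against the mean log2 level of the 26 stroma genes in the same library. On this scale the differences between genotypes at E18.5 and PND8 were smaller, and most overlapped. At PND8 Mgp stood 0.07 ± 0.22 (SD, n = 4) below the stroma mean in wild type and 0.95 ± 0.30 (SD, n = 3) below it in p27null, without overlap. The distances of Mxra8 at PND8 were -0.70 ± 0.15 and -1.15 ± 0.14, and those of Srpx2 -0.57 ± 0.17 and -1.04 ± 0.17, again without overlap. Dpysl3 (1.55 ± 0.19 against 1.32 ± 0.23) and Hdac11 (-1.98 ± 0.23 against -2.14 ± 0.34) overlapped on this scale at PND8. At E18.5 all 5 overlapped: Mgp, for one, stood at 0.33 ± 0.18 in wild type and 0.15 ± 0.44 in p27null. The differences were not smaller throughout at the ages outside the choice. At 12wk Mxra8 stood at 0.46 ± 0.15 (SD, n = 4) in wild type and -0.25 ± 0.26 (SD, n = 3) in p27null, without overlap. Every other comparison at E13.5 and 12wk overlapped on this scale. These values are log2 differences within a library, and no test was made on any of them. Those at E18.5 and PND8 use the same contrast that chose the genes.

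**Figure D3:**
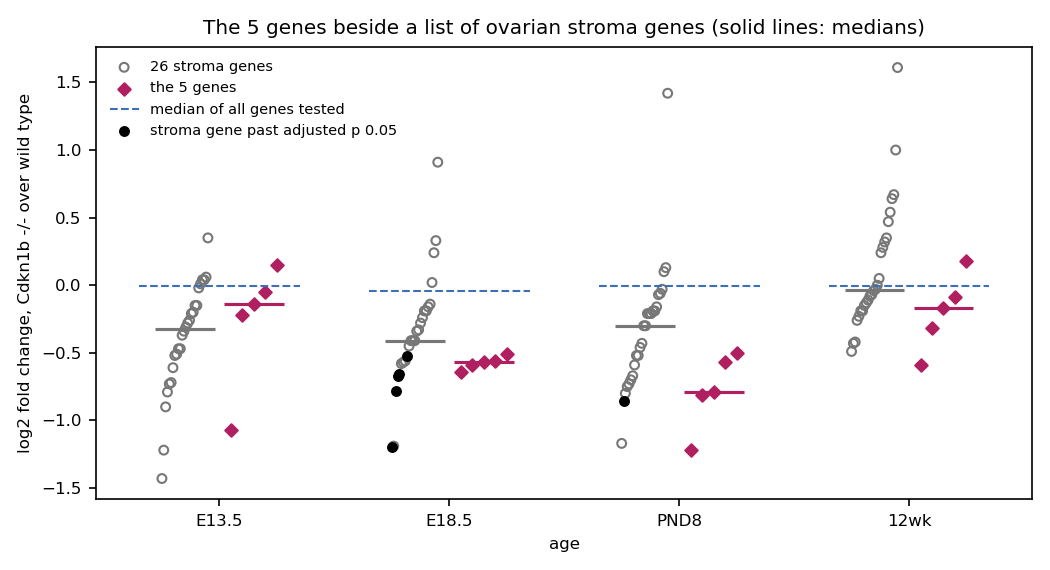
Log2 fold change of p27null over wild type (y axis) at each age (x axis) for the 26 stroma genes (open grey circles, black where called) and the 5 genes (diamonds); solid lines are medians of each list and dashed lines the median of all genes tested. The black points include Tcf21, Nr2f2, Col5a1 and Col6a3 at E18.5, and the one at PND8 is Pdgfra, and the stroma median moves from -0.41 at E18.5 to -0.04 at 12wk.

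Markers of other cell types were read in the same libraries, and some were uneven within an age. At 12wk the mesothelial gene Upk3b was at 0.0315 CPM in wild-type replicate 2 and 0.0852 CPM in p27null replicate 1. It was at 15.75 to 39.35 CPM in the other adult libraries. The nerve and Schwann list was apart between genotypes: its summed level was 131.7 to 222.5 CPM in wild type and 69.49 to 92.71 CPM in p27null at E18.5, and 49.87 to 64.8 against 25.58 to 31.55 CPM at PND8. One gene of the list was called lower at each of these ages, and the list did not move as one, since Tubb3 rose at E18.5 (1.27, adjusted p 0.0374 in edgeR's quasi-likelihood test). Sox10, which defines Schwann cells, reached at most 0.5831 CPM at E18.5 and 0.7935 CPM at PND8. The part of these cells in the lower Dpysl3 at E18.5 and PND8 was not tested. Among granulosa lineage genes Inha (1.14) and Cyp19a1 (2.51) rose at E18.5 and Kitl (0.87), a growth factor for oocytes, at PND8, and none was called lower. Cyp19a1 was near the floor at E18.5, with 0.1457 to 0.6745 CPM in wild type and 1.174 to 3.63 CPM in p27null. The list went both ways: at PND8 Foxl2 (-0.28, adjusted p 0.156 in edgeR's quasi-likelihood test) and Amh (-0.48, adjusted p 0.143) were below 0 with groups apart, and 3 genes were higher and 4 lower at an unadjusted p under 0.05. The summed granulosa level was 1544 to 1723 CPM in wild type and 1775 to 2162 CPM in p27null at E18.5, and overlapped at PND8. The steroidogenic sum was also apart at E18.5, 155.8 to 269.8 against 298.9 to 398.4 CPM, with Hsd3b1 called higher (0.75). Single genes led both sums at E18.5. Kitl gave 686.6 to 1083 CPM in wild type and 1008 to 1176 CPM in p27null. Hsd3b1 gave 114.1 to 228.6 against 255.4 to 336.2 CPM. At E18.5 and PND8 no gene of the smooth muscle and pericyte, endothelium, mesothelium, macrophage, germ cell or erythroid lists was called in either direction. Lower medians were not particular to the stroma list. At E18.5 and PND8 the medians were -0.33 and -0.33 for smooth muscle and pericyte, -0.18 and -0.81 for mesothelium and -0.29 and -0.29 for macrophage. They were -0.62 and 0.48 for germ cell, 0.11 and -0.07 for endothelium and -0.78 and 3.06 for erythroid genes. Smooth muscle sums overlapped, at 306.2 to 403.1 against 216 to 337.1 CPM at E18.5, as did endothelial sums, at 136.6 to 311 against 220.8 to 271.6 CPM. Adipoq, Cidec and Lep, which define fat cells, were at or under 3 counts in every E18.5 library, and the cartilage gene Matn1 likewise. The mesonephros list had no call either, and of the cartilage list Cnmd was called higher at PND8 (0.71). The part of these shifts in the values of the 5 genes was not tested.

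**Figure D4:**
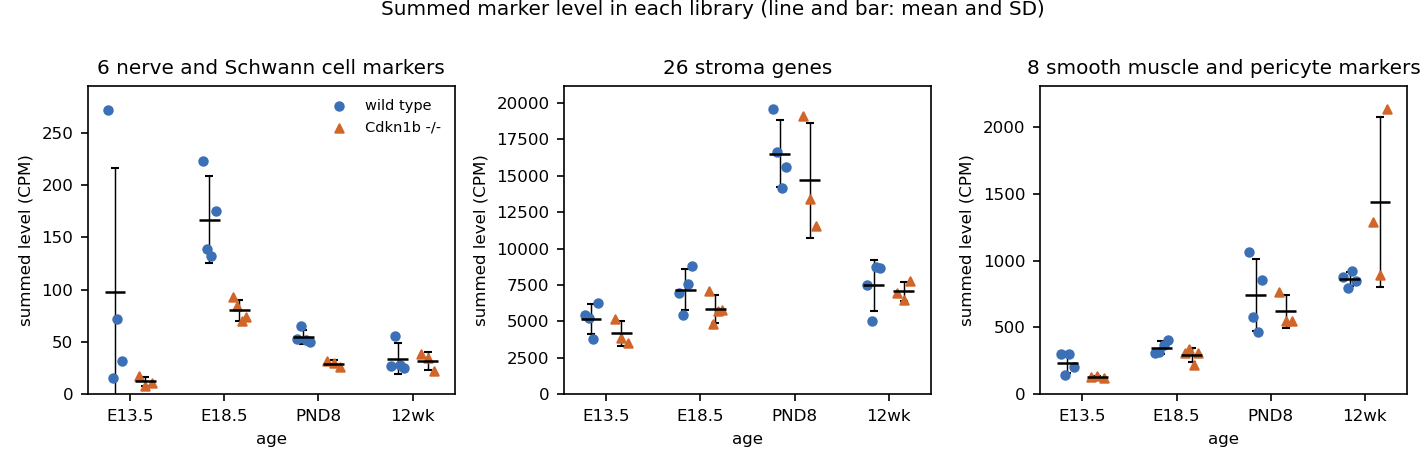
Summed level in CPM (y axis, linear, from 0) of marker lists at each age (x axis) in every library, wild type as circles and Cdkn1b -/- as triangles, with the group mean and SD. The nerve and Schwann sums are apart at E18.5 and PND8, and 1 wild-type library at E13.5 stands at 271.8 CPM, while the stroma sums overlap at every age.

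Of 29 relatives and partners of the 5 genes, 3 rose at E18.5 and none fell, against 3.32% of all genes called higher. They were Bmp4 (1.12), a ligand that matrix Gla protein can bind, Sema3a (0.52), a semaphorin upstream of the CRMP family, and Hdac6 (0.46), a tubulin deacetylase. None was called at E13.5, PND8 or 12wk by edgeR's quasi-likelihood test, with 1, 4 and 3 of them at an unadjusted p under 0.05. No other member of the CRMP or deacetylase families was called lower at E18.5 or PND8, and differences between family members were not tested. Dpysl2 stood at 0.10 at E18.5 and -0.02 at PND8, Dpysl4 at 0.25 and 0.33, Dpysl5 at 0.23 and 0.23 and Crmp1 at 0.86 and -0.17, none of them called. Among deacetylases Hdac7 (-0.38 and -0.41) and Hdac5 (-0.67 and -0.22) were, like Hdac11, below 0 at both ages, without a call, and Hdac7 had groups apart at E18.5. Hdac1, Hdac3 and Hdac8 ran from -0.28 to 0.45. Srpx, the closest relative of Srpx2, stood at -0.34 and -0.26, not called. With age the CRMP family split: in wild type from E13.5 to 12wk Dpysl2 fell by 5.25 on the log2 scale (adjusted p 2.74e-07) and Crmp1 by 4.41 (adjusted p 0.00039), whereas Dpysl4 rose by 2.87 (adjusted p 0.000777) and Dpysl5 by 2.63 (adjusted p 0.0041) in edgeR's quasi-likelihood test. Deacetylases split as well, with Hdac4 (2.64) and Hdac7 (1.5) higher and Hdac1 (-1.88), Hdac3 (-1.13) and Hdac9 (-2.08) lower in the adult, all called. Srpx fell by 1.35 over the same span, opposite in direction to Srpx2.

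In all, 14 of 15264 genes tested at both ages were called at E18.5 and at PND8, 11 of them lower at both and 3 higher at both. The PND8 calls did not hold in every refit: 0 genes were called there with all groups in a single fit, or without p27null replicate 3 or 4. Beside the 5 genes, whose place among the 11 comes from how they were chosen, there were 6 that included Cdkn1b itself, Rec8 (-1.36 and -1.70), a meiotic cohesin, Hoxd9 (-0.96 and -1.23), a homeobox gene of the posterior body, Igfbp6 (-0.59 and -1.12), a binding protein for insulin-like growth factor 2, and Mxd4 (-0.73 and -0.72), a partner of Max. Those higher at both were Ncapg (0.56 and 0.44), a condensin subunit, Shtn1 (0.92 and 0.61) and Mybpc3 (0.92 and 1.21). At 12wk Hoxd9 stood at 0.32 and Igfbp6 at 0.15, near Mgp at 0.18, whereas Rec8 stood at -2.03, none called.

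Within a group, libraries high in Mgp tended to be high in Mxra8 and Srpx2, after each group's mean had been subtracted. Over the 29 libraries the deviations of Mgp and Srpx2 had Pearson's r of 0.80 (p 0.00043, adjusted 0.0043) and Spearman's rho of 0.65 by a within-group permutation test. Mgp and Mxra8 had r of 0.75 (adjusted 0.0053 by the permutation test, rho 0.53), and Mxra8 and Srpx2 r of 0.78 (adjusted 0.005 by the permutation test, rho 0.57). Without the 2 libraries farthest from the median these were 0.67, 0.62 and 0.55. The 7 pairs with Dpysl3 or Hdac11 had r between -0.23 and 0.13, with an adjusted p of 0.99 by the permutation test over the 10 pairs. The libraries share depth and the make-up of each tissue sample, and wild-type replicates 3 and 4 at E13.5, low and high for the 3 genes, and adult wild-type replicate 2, low for them, lie at the ends of the range.

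**Figure D5:**
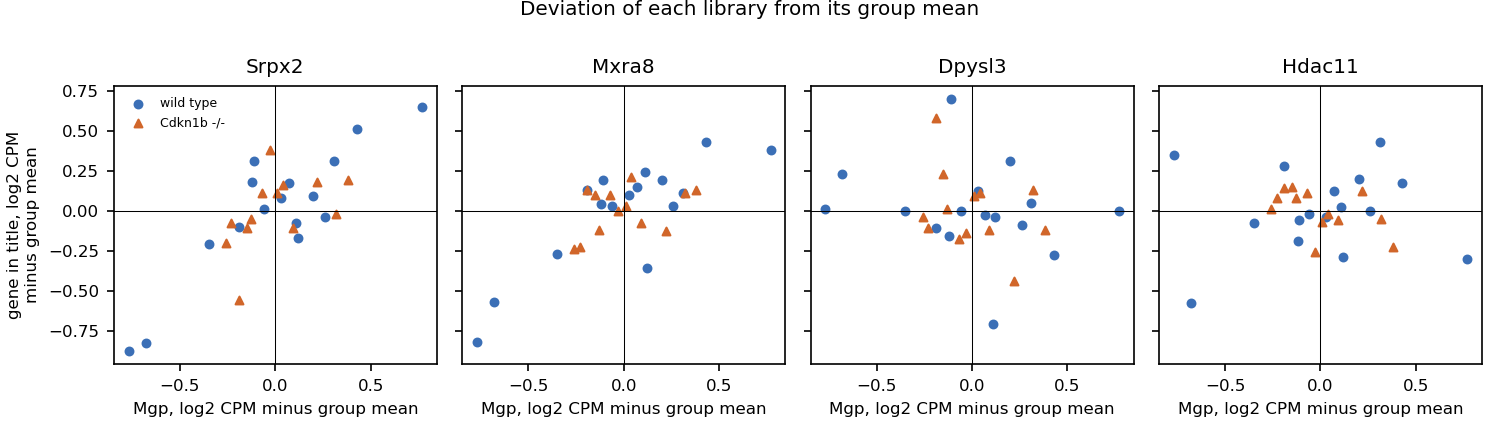
Deviation of each library from its group mean in log2 CPM, Mgp on the x axis and Srpx2, Mxra8, Dpysl3 or Hdac11 on the y axis, wild type as circles and Cdkn1b -/- as triangles. Points for Srpx2 and Mxra8 run along the diagonal (r of 0.80 and 0.75), and those for Dpysl3 and Hdac11 do not (r of -0.23 and -0.03).

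The genes with the most similar course over the 29 libraries were found by Pearson's r of log2 CPM, as a description without a test. That r spans both genotypes at each age, the ages that chose the genes included. A shared sign of the genotype difference is therefore partly built in. Closest to Mgp were Prelp (r 0.965), a small leucine-rich proteoglycan of matrix, Snhg18 (0.954) and Mylk (0.948), myosin light chain kinase. Prelp followed Mgp in sign at each age, at 0.33, -0.48, -0.63 and 0.62 in log2 fold change between genotypes from E13.5 to 12wk. Closest to Srpx2 were Vstm4 (0.956), Zg16 (0.955) and Fgf2 (0.953), a fibroblast growth factor. Vstm4 and Fgf2 lay below 0 at E18.5 (-0.45 and -0.59) and PND8 (-0.65 and -0.59), while Zg16 did not (0.10 and 0.15). For Mxra8 they were Lhfp (0.865), Pcdhb9 (0.853) and Cdkl2 (0.853), for Dpysl3 Bace1 (0.964), Mmd2 (0.951) and Plekha5 (0.95), and for Hdac11 Mdga1 (0.831), Rap1gap (0.827) and Fgf11 (0.819). After removal of group means, Mxra8 was closest to Pcdhb8 (0.887), Pdgfra (0.886) and Mmp2 (0.882), a matrix metalloproteinase, Srpx2 to Pmp22 (0.85), C1qtnf7 (0.835) and Islr (0.831), and Mgp to Serping1 (0.863), Parva (0.81) and Lepr (0.806). Dpysl3 was then closest to Cxxc4 (0.85), Slco3a1 (0.84) and Dip2b (0.797) and Hdac11 to Pnmal2 (0.808) and Wnk4 (0.792). Among all these neighbours Pdgfra was the only gene of the stroma list. Mgp, Srpx2, Dpysl3 and Hdac11 had no neighbour from it. Dpysl3 and Hdac11 also did not vary with Mgp, Mxra8 and Srpx2 within groups, over libraries that include the ages that chose the genes. The 5 genes are therefore called by their names here and not by a cell type.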

How the data were processed

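RNA from 29 papain-dissociated mouse ovary samples was extracted with a micro column kit, per the labels' protocols. Trim Galore, STAR 2.5.2, RSEM 1.3.0 and FastQC 0.11.5 were used, per the submitters' processing notes; the build the reads were aligned to and the strandedness are not given in the sources used here. The authors deposited a table of RSEM expected counts per gene ID, not normalized, of which 31.4% of the values above 0 were not whole. These were rounded. All 29 sample columns were matched to a label. GENCODE M21 (GRCm38) gave symbols for 51633 of 51912 IDs. No library pair within a group agreed within sampling noise (lowest chi-square per degree of freedom 14.13 over 39 pairs).

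Genotypes were compared at each age, and 12wk with E13.5 within each genotype, with edgeR 4.0.16 in R 4.3.3 (quasi-likelihood, robust, TMM, filterByExpr with a minimum count of 10), Benjamini-Hochberg adjustment over all genes tested and a threshold of 0.05. The standard error is the log2 fold change divided by the root of F. Levels are CPM with TMM factors over all libraries; correlations used a prior count of 2. The test was tried on simulated counts. Depth limits the lower end: 3 counts is the floor, and intervals or p-values cover these libraries only. The alternatives were RLE size factors, no filter on low counts, DESeq2 1.42.0, all groups in a single fit, a replicate block, each library left out in turn and a prior count of 0.5; dropping the 2 farthest libraries from a correlation, RLE for steps between ages and genes within 5 Mb of Cdkn1b were added after seeing the data.

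The 5 genes and the 14 further gene lists were chosen with earlier results of these data known. Named are the 5 genes, Cdkn1b, list genes that passed a genotype test (up to 4 per list and comparison), fixed stroma references and relatives, genes called at both E18.5 and PND8, and for each gene the 3 most similar in course among genes of mean CPM of at least 2. Genes called higher at both ages, stroma and marker genes that did not pass, and marker levels in single libraries were named after their values were seen. No sequence of chromosome 18 is printed. A few genes that the naming rule covers are not reported here, though they remain in the counts and summed levels.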

Additional observations from a re-analysis of the deposited data

How the results depend on the processing

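Outside E18.5 and PND8, of 335 refits of values of the 5 genes, 306 kept their direction and side of the threshold, 26 turned direction, 3 passed only under the alternative and none lost the threshold. The count of called genes moved more; the cause was not tested. At E13.5 it went from 1 to 71 with DESeq2 and 59 with all groups in a single fit, at E18.5 from 814 to 1637 with DESeq2, at PND8 from 62 to 258 without the filter, 715 with DESeq2 and 0 with all groups, and at 12wk from 2 to 12 without the filter, 293 with DESeq2 and 68 with all groups. The interaction count went from 0 to 68 with DESeq2 and 4 with all groups. Stroma genes called lower went from 5 to 3 at E18.5 with all groups, and from 1 at PND8 to 2 without the filter, 6 with DESeq2 and 0 with all groups. With all groups, Dpysl3 at E13.5 (-1.05) and Mxra8 in wild type over age (0.51) passed, and Hdac11 in p27null over age was 0.02, or 0.06 without the filter.

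With 1 library left out, called genes ranged from 0 to 1 at E13.5, 246 (without p27null replicate 3) to 1372 (without wild-type replicate 2) at E18.5, 0 (without p27null replicate 3 or 4) to 147 (without wild-type replicate 3) at PND8, 0 to 3 at 12wk and 0 to 2 for the interaction. Stroma genes called lower ranged from 0 to 8 at E18.5 and 0 to 3 at PND8. At E13.5 Mgp ranged from -0.01 to 0.46, Mxra8 from -0.21 to 0.08, Srpx2 from -0.41 to 0.02 and Hdac11 from -0.24 to 0.05. At 12wk Mgp ranged from -0.07 to 0.35 and Srpx2 from -0.32 to 0.10. Over age Mxra8 ranged from 0.30 to 0.66 in wild type and -0.15 to 0.06 in p27null, and Hdac11 from -0.10 to 0.09 in p27null. The interaction ranged from -0.27 to 0.18 for Mgp and -0.11 to 0.31 for Srpx2.

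The labels do not say whether replicate numbers pair the samples. The mean correlation of same-numbered deviations was 0.008, 0.179, 0.103 and 0.109 from E13.5 to 12wk, which cannot exclude a pairing. With the number as a replicate block, 8 genes were called at PND8 and 10 at 12wk, with 0 stroma genes lower at PND8. Mxra8 at E13.5 was then 0.08, Mgp at 12wk -0.01 and the Mgp interaction -0.01. Under the same block Mxra8 at 12wk was -0.74 (adjusted p 0.0874) and Dpysl3 at E13.5 -1.3 (adjusted p 0.171). Neither was called by edgeR's quasi-likelihood test. Of the p27null libraries, 1 of 3 at E13.5, 1 of 4 at E18.5, 2 of 3 at PND8 and 2 of 3 at 12wk correlated best with the wild-type library of their own number. Of 40 steps between ages, 39 kept their order of libraries with RLE size factors.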
